A study of Phyllostachys edulis with 12 samples.

Results

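The comparison described here set moso bamboo (Phyllostachys edulis) seedlings kept for 1 h at -2 °C against untreated control seedlings, gene by gene, by RNA sequencing. Its members are the 6 libraries labelled as 1 h of cold (3 libraries) or control (3 libraries), out of 11 libraries with a matched column in the count table of the series. The other libraries, 3 after 0.5 h and 2 after 24 h at the same temperature, entered the fit to share its estimate of spread and are quoted for the genes described below. All seedlings were 3 weeks old, were grown in a greenhouse and were at the stage with 3 leaves when the cold began. The cold was given in a freezing chamber whose light and day length matched those of the control seedlings. Moso bamboo is a large woody grass, and the labels name no genotype, line or transgene.

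A plant moved into the cold is known to respond in waves. Within minutes calcium enters the cytosol and kinases are activated, and transcription factors such as the CBF/DREB1 family are induced early. Their targets, among them dehydrins and enzymes that make protective sugars, follow later and are the ones mainly tied to freezing tolerance. A 1 h sample therefore falls in the early window of that sequence. The count table gives identifiers without gene names or functions, so none of these families could be looked up and genes are given by identifier or by their place in a ranking. Because whole seedlings were sequenced, fewer cells of a type and less RNA per cell cannot be told apart in any of the levels below.

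The 6 libraries held 30331928 to 34543663 counts, and each detected 40840 to 41705 of the 47091 genes in the table. The filter on low counts kept 39640 genes, 27288 with a PH01 identifier and 12352 listed as newGene. Levels are given as CPM, that is, counts divided by the TMM-scaled size of the library. The TMM factors were 1.051 to 1.064 in the 1 h libraries and 0.9829 to 1.045 in the controls. On the first principal component of the 6 libraries, which held 24.6% of the variance of log2 CPM, the scores were -24.2, -90.5 and -24.6 for the 1 h libraries and 13.4, 32.3 and 93.6 for the controls. The groups did not overlap on this axis, although 1 h replicate 2 and control replicate 3 lay far from the rest of their own groups. The next components held nearly as much of the variance, 19.8% and 19.4%, and the groups overlapped on both. Pearson correlations of log2 CPM across genes were 0.935 to 0.95 between a 1 h and a control library, 0.944 to 0.947 among the 1 h libraries and 0.949 to 0.95 among the controls. The common biological coefficient of variation was 31.3% among the 1 h libraries and 29.6% among the controls.

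A pair of genes rose at 1 h. PH01001566G0280 stood at 13.9, 19.3 and 10.9 CPM in the 1 h libraries, against 1.57, 1.66 and 2.35 CPM in the controls. Every 1 h library lay above every control library, which the rule for naming genes required. Of all tested genes, 5.79% met that condition. The values rested on 360 to 671 counts at 1 h and on 53 to 70 counts in the controls. The gene averaged 14.7 ± 4.26 CPM at 1 h and 1.86 ± 0.425 CPM in the controls (SD, n = 3 each), which was 7.93-fold higher at 1 h, a log2 fold change of 2.99 (SE 0.32, 95% interval 2.27 to 3.70, edgeR adjusted p = 0.037).

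PH01002148G0300, the other gene that rose, stood at 13.0, 11.3 and 10.2 CPM in the 1 h libraries, against 3.53, 3.23 and 3.83 CPM in the controls. Its libraries agreed more closely within each group, and the groups did not overlap, again by the rule of choice. The mean was 11.5 ± 1.42 CPM at 1 h and 3.53 ± 0.298 CPM in the controls (SD, n = 3 each), 3.26-fold higher at 1 h, a log2 fold change of 1.71 (SE 0.19, 95% interval 1.30 to 2.11, edgeR adjusted p = 0.037). The table lists lengths of 2479 for PH01001566G0280 and 2086 for PH01002148G0300, without a unit, and the median over all genes of the table is 2897.

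These 2 genes were 0.00505% of the 39640 tested at an adjusted p under 0.05 in edgeR's quasi-likelihood test with Benjamini-Hochberg adjustment. The test called 0 genes lower (0%), while without adjustment 1303 genes on the lower and 1424 on the higher side had p under 0.05, 6.88% of genes together. With no change in any gene, a share near 0.05 would have such a p. DESeq2 called 54 genes lower and 119 higher on the same counts, and limma-voom called 0 in either direction (2711 genes at an unadjusted p under 0.05, lowest adjusted p 0.34). Both edgeR calls were lost when control replicate 1, 2 or 3 or 1 h replicate 1 or 2 was left out, with edgeR adjusted p from 0.063 to 0.2, while the log2 fold changes ran from 2.75 to 3.19 for PH01001566G0280 and from 1.61 to 1.79 for PH01002148G0300 over all 6 omissions. Without the 24 h libraries both had an edgeR adjusted p of 0.061.

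No gene could be said to have fallen by the same test. The genes with the smallest edgeR p on the lower side, among those whose groups did not overlap and whose mean log2 CPM was at least 0, were PH01001400G0170 and newGene_25189. PH01001400G0170 stood at 12.5, 11.4 and 13.8 CPM in the 1 h libraries, against 24.8, 21.9 and 25 CPM in the controls. All 1 h libraries were thus near 0.527 times the control level. The log2 fold change was -0.92 (SE 0.15, 95% interval -1.26 to -0.59, edgeR adjusted p = 0.26; DESeq2 adjusted p = 7.7e-05). Its listed length is 39532, far above the median.

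The newly modelled gene newGene_25189 stood at 38.4, 41.0 and 33.4 CPM at 1 h, against 53.1, 65.6 and 66.6 CPM in the controls. Every 1 h library was below every control, as the rule of choice required. The log2 fold change was -0.72 (SE 0.13, 95% interval -0.997 to -0.435, edgeR adjusted p = 0.33; DESeq2 adjusted p = 0.00017). With limma-voom the adjusted p was 0.37 for PH01001400G0170 and 0.41 for newGene_25189.

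**Figure D1:**
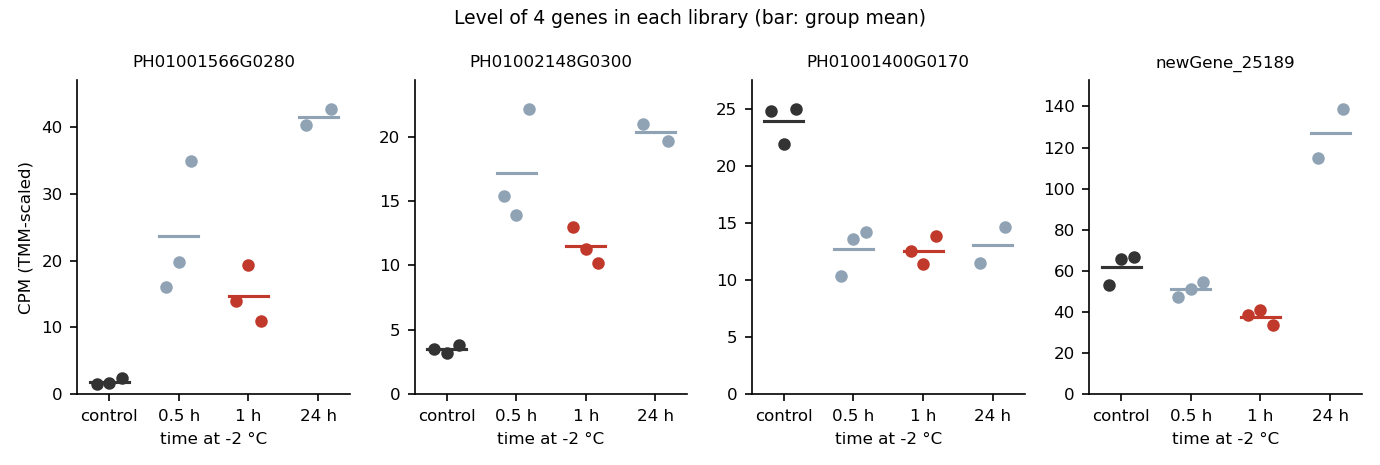
CPM (TMM-scaled, y axis) of the 4 named genes in each library by time at -2 °C (x axis), where points are libraries and bars group means. The 1 h points of PH01001566G0280 lie between 10.9 and 19.3 CPM and all control points between 1.57 and 2.35 CPM, while newGene_25189 is lowest at 1 h and highest at 24 h.

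The levels of these genes at the neighbouring times differed in shape. PH01001566G0280 averaged 1.86 ± 0.425 CPM in the controls, 23.6 ± 10 CPM at 0.5 h, 14.7 ± 4.26 CPM at 1 h and 41.6 ± 1.68 CPM at 24 h (SD, n = 3, and n = 2 at 24 h). PH01002148G0300 followed the same order, with 3.53 ± 0.298, 17.2 ± 4.42, 11.5 ± 1.42 and 20.4 ± 0.857 CPM. Its 1 h libraries lay below all 0.5 h libraries (13.9 to 22.2 CPM), whereas those of PH01001566G0280 overlapped with its 0.5 h libraries (16.1 to 35 CPM). The direct contrast of 1 h with 0.5 h gave a log2 difference of -0.68 for PH01001566G0280 (95% interval -1.31 to -0.05, edgeR adjusted p = 0.7) and of -0.58 for PH01002148G0300 (95% interval -0.97 to -0.19, edgeR adjusted p = 0.68). Neither was called in that contrast, in which 0.00252% of genes were.

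PH01001400G0170 averaged 23.9 ± 1.73 CPM in the controls and then 12.7 ± 2.11 CPM at 0.5 h, 12.6 ± 1.16 CPM at 1 h and 13.1 ± 2.18 CPM at 24 h (SD, n = 3, and n = 2 at 24 h). The 3 cold times overlapped with each other, and 1 h minus 0.5 h gave -0.01 on the log2 scale (95% interval -0.34 to 0.32, edgeR adjusted p = 1). Its call passed the threshold at 24 h against the control, with a log2 fold change of -0.87 (edgeR adjusted p = 0.012), in a contrast that called 7.59% of genes and that shares the control libraries with the 1 h contrast. newGene_25189 averaged 61.8 ± 7.54, 51.0 ± 3.65, 37.6 ± 3.87 and 127 ± 17.2 CPM in the same order of times. It was thus lowest at 1 h and highest at 24 h. Its 24 h level exceeded the 1 h level by 1.76 on the log2 scale (95% interval 1.45 to 2.07, edgeR adjusted p = 7.1e-05). That contrast called 9.71% of genes and shares the 1 h libraries by which the gene was chosen.

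PH01 identifiers share their first 10 characters with other genes of the table. For PH01001566G0280, 4 other tested genes had the same first 10 characters, and their log2 fold changes at 1 h were -0.05 to 0.34 (lowest edgeR adjusted p 0.75). For PH01002148G0300 there were 3 such genes, at -0.34 to 0.16 (lowest edgeR adjusted p 0.77), and for PH01001400G0170 there were 5, at -0.14 to 0.61 (lowest edgeR adjusted p 0.72). None of these genes was called at 1 h, but only 0.00505% of all tested genes were, so this says little about them. Of the 5 for PH01001400G0170, 1 had an unadjusted edgeR p under 0.05 (6.88% of all tested genes).

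The 20 genes with the smallest edgeR p at 1 h comprised 17 with a higher and 3 with a lower level than the controls. Of all tested genes, 3.59% were higher and 3.29% lower at an unadjusted edgeR p under 0.05. By identifier, 14 of the 20 were PH01 genes and 6 were listed as newGene, near the newGene share of 31.2% among all tested genes. All 20 were called by DESeq2, against 0.436% of all tested genes, and edgeR's adjusted p ran from 0.037 to 0.33. Since the ranking comes from this same contrast, the counts describe the top of the list and test nothing. Their levels at the other times took several forms.

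Some of the genes that were higher at 1 h were far higher again at 24 h. The gene at rank 5, a PH01 gene, stood at 7.76, 8.56 and 9.99 CPM at 1 h, against 1.07, 0.204 and 0.705 CPM in the controls, and at 121 and 93.6 CPM at 24 h. The gene at rank 9 stood at 4.18, 5.76 and 5.47 CPM at 1 h, against 1.90, 1.83 and 1.74 CPM in the controls, and at 56.8 and 30.6 CPM at 24 h. A newly modelled gene at rank 8 stood at 2.01, 3.92 and 4.13 CPM at 1 h, against 0.712, 0.727 and 0.57 CPM in the controls, and reached 52.8 and 43.5 CPM at 24 h. For these genes the 1 h level was a small part of the 24 h level, and the 0.5 h libraries were already above all controls (5.83 to 17.0 CPM at rank 5, 5.23 to 6.72 CPM at rank 9 and 3.28 to 6.69 CPM at rank 8).

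Other genes of the list were highest at 1 h and closer to the control level at 0.5 h. The gene at rank 4, listed as newGene, stood at 47.4, 73.5 and 58.0 CPM at 1 h, against 30.0, 28.9 and 30.2 CPM in the controls, with 31.1 to 34.1 CPM at 0.5 h and 26.4 to 26.7 CPM at 24 h. The gene at rank 15 stood at 21.4, 19.7 and 17.4 CPM at 1 h, against 7.63, 8.06 and 6.81 CPM in the controls, with 7.66 to 10.7 CPM at 0.5 h and 15.3 and 7.57 CPM at 24 h. The gene at rank 17 stood at 41.1, 47.6 and 44.1 CPM at 1 h, against 27.6, 28.7 and 24.0 CPM in the controls, with 27.9 to 36.6 CPM at 0.5 h and 16.7 and 19.4 CPM at 24 h. In these genes the 1 h libraries were the highest of all 11 libraries, by an edgeR adjusted p against the control of 0.19 at rank 4, 0.28 at rank 15 and 0.33 at rank 17, so none was called.

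**Figure D2:**
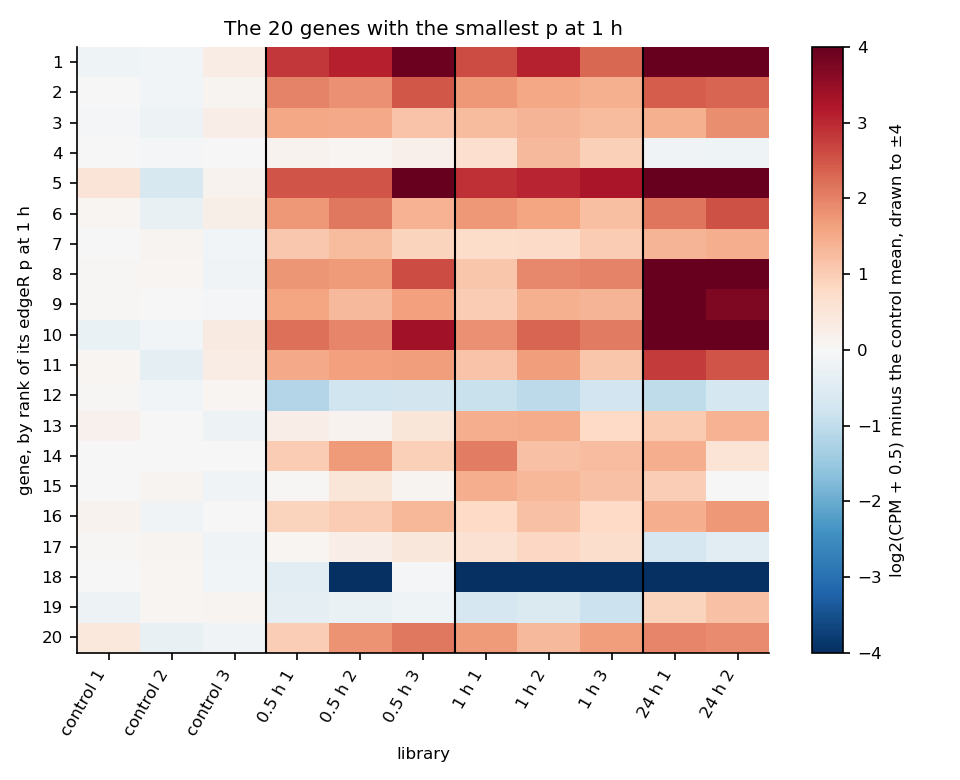
Level of the 20 genes with the smallest edgeR p at 1 h (rows, by rank) in each of 11 libraries (columns), as log2 of CPM plus 0.5 minus the mean of the controls, drawn to ±4. Most rows are red (higher) at 1 h; rows 4, 15 and 17 are red mainly at 1 h, and row 18 is dark blue in all 1 h libraries.

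The gene at rank 18 differed in kind. It had 0, 2 and 1 counts in the 1 h libraries, against 351, 373 and 284 counts in the controls. It was also nearly uncounted in 0.5 h replicate 2 (2 counts) and at 24 h (1 and 4 counts), but not in 0.5 h replicates 1 and 3 (226 and 310 counts). So it was high or near 0 in a given library, and the 0.5 h libraries held both states. Its edgeR adjusted p was 0.33 and its DESeq2 adjusted p 5.7e-05. This was the only gene of the 39640 with less than 1 CPM in all 1 h libraries and at least 5 CPM in all controls, and no gene had the reverse pattern. These counts of 1 and 0 depend on single libraries and on the level required: with 1 library left out they were 3 to 4 and 0 to 8, and at 2 CPM in place of 5 they were 5 and 8.

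DESeq2's calls give a wider view of the same contrast. The 119 genes it called higher (0.3% of those tested) had median levels of 9.49, 10.8 and 8.32 CPM in the 1 h libraries, against 3.09, 2.27 and 2.75 CPM in the controls. Their median log2 fold change was 1.4, against 0.0031 over all tested genes in edgeR's fit, and 12 of them had no count in any control library. With those 12 set to the bound that 3 counts per control library would give, the median remained 1.4, and of the other 107 genes 73 were at least 2-fold and 31 at least 4-fold higher. By library, 113 of the 119 had all 1 h libraries above all controls, which held for 5.79% of all tested genes, but the genes were chosen by this contrast. Their median level was 7.79 to 8.98 CPM at 0.5 h and 14.6 to 15.4 CPM at 24 h.

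The 54 genes that DESeq2 called lower (0.136%) had median levels of 10.2, 8.87 and 9.73 CPM at 1 h, against 16.0, 20.8 and 22.5 CPM in the controls. Their median log2 fold change was -0.92, also with the 7 genes that had no count in any 1 h library set to the bound. That median was smaller in size than among the genes called higher, but the sets differed in abundance. The median of the mean log2 CPM was 3.8 for the genes called lower and 2.34 for those called higher. The part of abundance in this difference was not tested. Of the other 47, 19 were at least 2-fold and 12 at least 4-fold lower. In 46 of the 54 all 1 h libraries lay below all controls, against 5.66% of tested genes, but these genes too were chosen by this contrast. Their median level was 11.8 to 13.9 CPM at 0.5 h and 11 to 15 CPM at 24 h. Genes listed as newGene made up 27.8% of the genes called lower and 22.7% of those called higher, against 31.2% of all tested genes.

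On the same counts, edgeR's unadjusted p was under 0.05 for all 119 genes that DESeq2 called higher and for 52 of the 54 it called lower. Of all tested genes, 3.59% were higher and 3.29% lower at that p. limma-voom's unadjusted p was under 0.05 for 97 of the 119 and 44 of the 54. The genes were chosen by this contrast, so the overlap is no separate support. edgeR's adjusted p called only the 2 named above among them. Leaving out 1 library at a time gave 133 to 276 DESeq2 calls in place of 173, of which 78 to 116 were among the 173. The number called lower was 27 without control replicate 3, 113 without control replicate 1 and 99 without 1 h replicate 3, against 54 with all libraries.

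**Figure D3:**
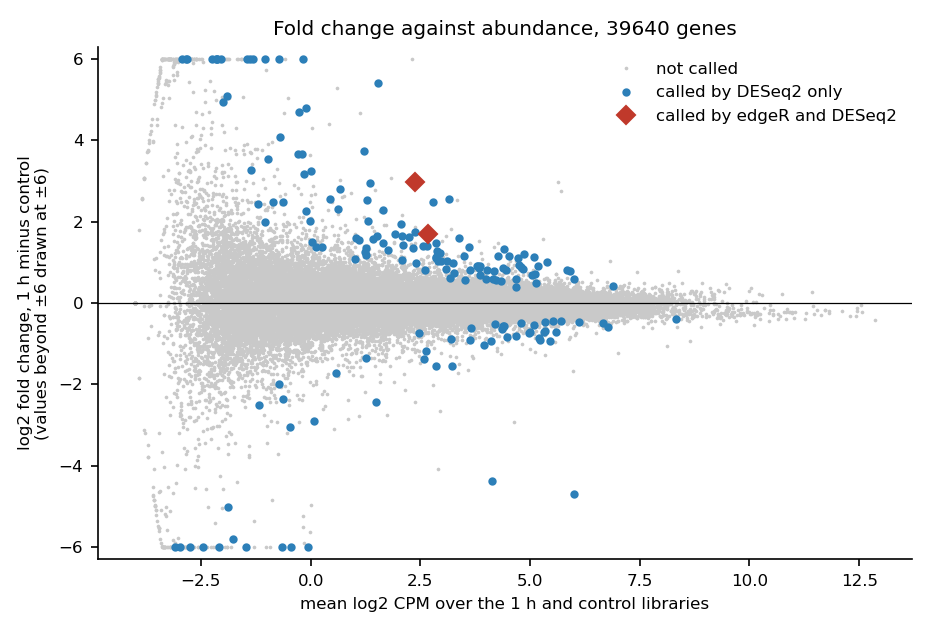
Log2 fold change of 1 h minus control from edgeR (y axis, values beyond ±6 drawn at ±6) against mean log2 CPM over the 6 libraries (x axis), 1 point per tested gene. The 2 genes called by edgeR (red) lie at 2.99 and 1.71, and the genes called by DESeq2 only (blue) lie above zero more often than below it, 119 of the 173 DESeq2 calls being higher.

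**Figure D4:**
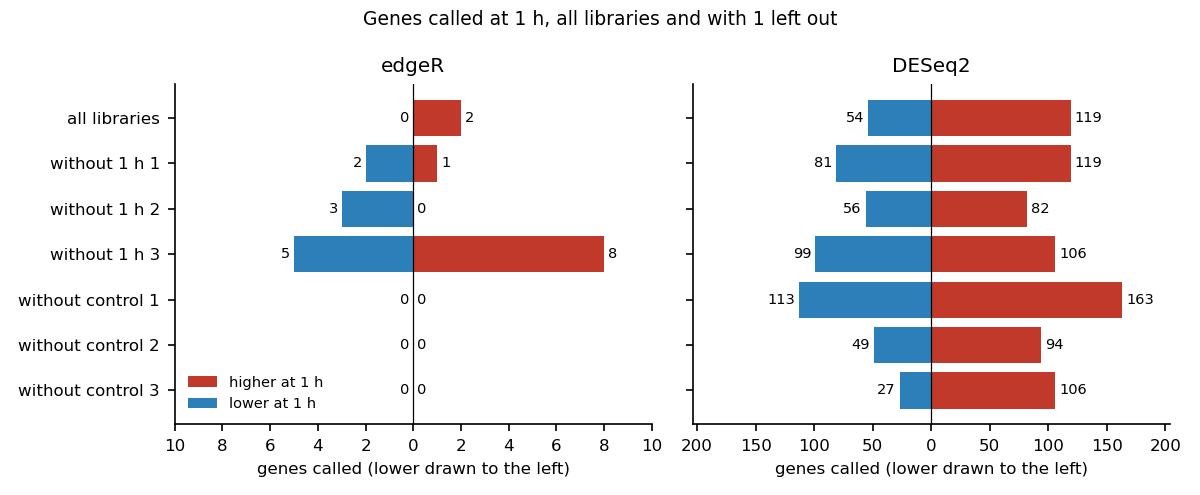
Genes called higher (bars to the right) or lower (bars to the left) at 1 h at an adjusted p under 0.05, with all libraries and with 1 library left out, for edgeR (left panel) and DESeq2 (right panel). edgeR called 0 genes without any 1 of the controls and 13 without 1 h replicate 3; DESeq2 called between 133 and 276.

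For most genes the data bounded the change at 1 h rather than showing one. The middle 50% of log2 fold changes lay between -0.18 and 0.19, and the median SE was 0.24. For 25075 genes (63.3%) the whole 95% interval of the fold change lay within 2-fold of no change. That share rose with abundance, from 8.14% of 12246 genes at a mean log2 CPM up to 1 to 73.4% of 9186 genes at 1 to 3, 94.1% of 11484 genes at 3 to 5 and 97.1% of 6724 genes above 5. Among thinly counted genes a change of 2-fold in either direction was therefore usually not detectable or excludable at this depth and spread. By length, the share was 35.5% in the shortest quartile of tested genes (141 to 1630) and 90.3% in the longest (8481 to 396795), and it was 46.9% for newGene entries and 70.7% for PH01 genes. Within classes of abundance the last gap was small, with 7.57% for newGene entries and 8.69% for PH01 genes at a mean log2 CPM up to 1, and 96.4% and 97.3% above 5.

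**Figure D5:**
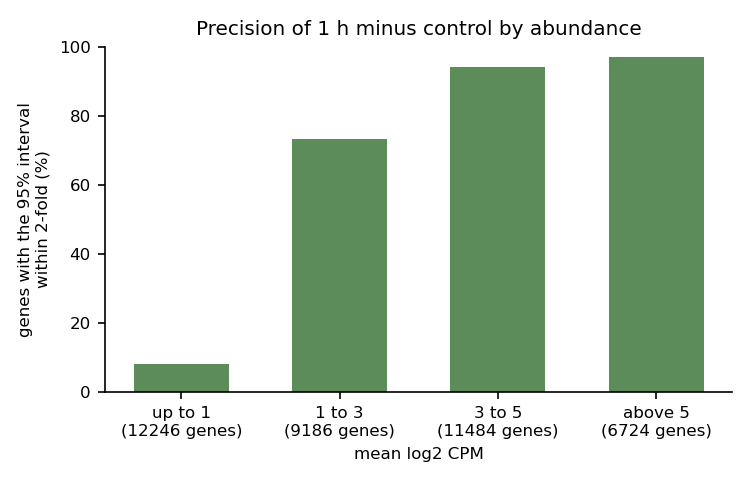
Share of tested genes (y axis, %) whose 95% interval of the fold change at 1 h lies wholly within 2-fold of no change, by class of mean log2 CPM (x axis). The share is 8.14% in the lowest class and 97.1% in the highest.

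Genes with small p-values were not spread evenly over abundance. Above a mean log2 CPM of 5, 358 genes (5.32%) had a lower and 170 (2.53%) a higher level at 1 h with an unadjusted p under 0.05, against 3.29% and 3.59% of all tested genes. Up to a mean log2 CPM of 1 the split was the other way, with 281 lower (2.29%) and 466 higher (3.81%). The split in the abundant class was similar with RLE factors (354 lower, 171 higher) and upper-quartile factors (371 lower, 161 higher), but not without factors. By library size alone it was 208 lower and 341 higher, and over all genes 869 lower and 1943 higher, against 1303 and 1424 with TMM factors. That scaling put the median over all genes at 0.06 on the log2 scale. None of the genes above 5 was called by edgeR, which called 0.00505% of all tested genes. DESeq2 called 15 of the genes above 5 lower and 10 higher, against 0.136% lower and 0.3% higher of all tested genes.

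At the very top of the abundance range the levels were also compared gene by gene and as a share of all counts. Of the 100 most abundant genes, 12 had all 1 h libraries below all controls (5.66% of all tested genes) and 2 had them above (5.79% of all tested genes), and the median log2 fold change of the 100 was -0.23, or -0.17 with library size alone. For the 1000 most abundant genes the median was -0.05. The log2 fold changes of the 12 were -0.55 to -0.22, those of the 100 lay between -0.55 and 0.46, and the lowest edgeR adjusted p among the 100 was 0.59. For 97 of the 100 the 95% interval lay within 2-fold. These 100 genes took 17.1%, 15.8% and 17.7% of all counts in the 1 h libraries, against 17.5%, 18.3% and 20.1% in the controls. The difference of the means was -1.77 percentage points, or -1.05 without control replicate 3, and the groups overlapped. An exact two-sided permutation test gave p = 0.2 (0.3 adjusted over 3 sets, where 0.1 is the smallest unadjusted p that 3 against 3 libraries allow). No outcome of this test could thus pass 0.05, and the 3 sets are nested, so the shares are a description. The 1000 most abundant genes took 38.3%, 37.9% and 38.9% at 1 h, against 39.1%, 39.8% and 41.5% in the controls, without overlap (exact permutation p = 0.1, adjusted 0.3), and the 10 most abundant took 5.42%, 4.57% and 5.57%, against 5.51%, 5.45% and 6.59% (exact permutation p = 0.4, adjusted 0.4).

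Some large fold changes in well counted genes came with libraries that disagreed inside a group. Where the mean log2 CPM was 3 or more, 7 genes differed by at least 4-fold, 4 higher and 3 lower, and edgeR called 0 of them (lowest adjusted p 0.37, against 0.00505% of all genes called), while DESeq2 called 3 (0.436% of all genes) and gave no adjusted p for 2. In 4 of the 7, replicates of 1 group were at least 4-fold apart. The share of all genes of this abundance with such replicates was not counted. All 1 h libraries lay above all controls in 3 of the 4 higher genes (5.79% of all tested genes). They lay below all controls in 2 of the 3 lower ones (5.66% of all tested genes). The 7 genes were picked by their fold in this same contrast. The most abundant of the 7, a PH01 gene, stood at 19.3, 13.8 and 21.7 CPM at 1 h, against 516, 27.0 and 879 CPM in the controls. Control replicate 2 was thus above the 1 h libraries but near their level. Its 0.5 h libraries all lay at 532 to 699 CPM, and its 24 h libraries at 1370 and 20.3 CPM. For the next, the rise came mainly from 1 h replicate 2, with 87.6, 417 and 30.7 CPM at 1 h against 20, 27.5 and 31.1 CPM in the controls. The 1 h libraries lay closer together in a further PH01 gene that was higher, at 20.6, 28.1 and 20.3 CPM. Its controls stood at 6.83, 2.01 and 2.75 CPM and its 24 h libraries at 333 and 254 CPM. At 1 h its adjusted p was 0.47 in edgeR and 0.028 in DESeq2.

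In another of the genes whose groups did not overlap, the 1 h libraries were over 4-fold apart. This PH01 gene, with a listed length of 14562, stood at 8.56, 1.99 and 2.37 CPM at 1 h, against 96.4, 115 and 60 CPM in the controls, with 1.92 to 7.97 CPM at 0.5 h and 82.6 and 9.81 CPM at 24 h. Its log2 fold change at 1 h was -4.39 (SE 0.87, edgeR adjusted p = 0.37; DESeq2 adjusted p = 0.0018). Over the 18208 genes of this abundance, 5 genes were more than 8-fold lower in 1 library than in each of the other 5 for each 1 h library, and 5, 2 and 1 for control replicates 1, 2 and 3. At 4-fold the numbers were 5, 12 and 10 for 1 h replicates 1, 2 and 3 and 8, 5 and 4 for the controls, so such lone losses occurred in both groups. The part of these lone values in the calls was not tested.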

How the data were processed

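Total RNA of whole seedlings was extracted with an RNeasy kit and turned into libraries with a NEBNext Ultra RNA kit, per the labels. The submitters' processing notes name HISAT2. Its version, the genome build, annotation, strand setting, counter and handling of multiply matching reads: not given in the sources used here. Genes with near-identical copies are therefore uncertain. The authors deposited raw counts per gene (whole values, unequal totals) and a gene length. A column was taken for a sample where the sample's description held its code. The table had 1 count column that matched no label and was not used, and the sample labelled 24 h replicate 3 was not analysed here. The codes of the table run without a gap that those of the labels have, so the replicate numbers at 24 h are uncertain; the 1 h and control columns come before that gap.

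Genes were filtered by filterByExpr and scaled by TMM in edgeR 4.0.16 (R 4.3.3), and all 11 libraries were fitted with a mean per group (7 residual and 3.86 prior degrees of freedom). The contrast of 1 h minus control was tested by edgeR's quasi-likelihood F-test, with Benjamini-Hochberg adjustment over all genes and calls at an adjusted p under 0.05. DESeq2 1.42.0 and limma-voom (limma 3.58.1) were alternatives, beside other scalings, filters, sets of libraries, a replicate block and leaving out each library. SE is the log2 fold change over the root of F, and 95% intervals use the fit's degrees of freedom; 59 genes gave no SE. Log2 CPM for components, correlations and mean abundance used a prior count of 2. DESeq2 gave no adjusted p for 935 genes, which count as not called. The scripts were tested on simulated data.

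Up to 2 genes per direction were named, those with the smallest edgeR p among genes whose groups did not overlap and whose mean log2 CPM was at least 0. The ranked, the abundant and the large-fold genes were picked after values were seen. The comparison, the rule and the lists were chosen with earlier results of these data known. Gene lists for cold response could not be applied, since identifiers come without names. No pair of the 6 libraries agreed within sampling noise (lowest chi-square per degree of freedom 16.6). That closest pair was 1 h replicate 3 with control replicate 1, while the closest pair within the 1 h group gave 21. Nothing says whether replicates came from separate plants or from pools. The p-values measure the spread between these samples only, and that spread may be technical. A harvest day or library batch shared by a whole group and the cold itself cannot be told apart.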

Additional observations from a re-analysis of the deposited data

Results flagged for a closer look

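For 3 of the named genes the level differed between 24 h and 1 h of cold, by edgeR's test of the difference itself at an adjusted p under 0.05. In 24 h minus 1 h, which called 9.71% of genes, PH01001566G0280 differed by 1.5 on the log2 scale (edgeR adjusted p = 0.015), PH01002148G0300 by 0.82 (edgeR adjusted p = 0.025) and newGene_25189, whose full name in the table is Phyllostachys_edulis_newGene_25189, by 1.76 (edgeR adjusted p = 7.1e-05). Both 24 h libraries lay above all 1 h libraries for each of the 3. The genes were picked by their values in the 1 h libraries, which this contrast shares, and the adjusted p-values do not allow for that choice. The control cancels in this contrast, while a batch shared by a whole group and the time in the cold cannot be told apart. The controls form a single group, with none for each time, so sampling time and time in the cold cannot be told apart either. Groups of 3 or fewer are too small for a test of outlying libraries.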

How the results depend on the processing

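The edgeR count of 2 genes (2 higher, 0 lower) held with RLE, upper-quartile or no scaling factors and with no or a stricter filter. It was 8 (6 higher, 2 lower) with only the 1 h and control libraries, 1 (0 higher, 1 lower) without the 24 h libraries, 173 with DESeq2 (119 higher, 54 lower) and 0 with limma-voom. Leaving out 1 library gave 0 to 13 calls, 0 to 8 higher and 0 to 5 lower: 0 without control replicate 1, 2 or 3 (3171, 2617 and 1892 genes at an unadjusted p under 0.05), and, without 1 h replicate 1, 2 or 3, calls of 1, 0 and 8 genes higher with 2, 3 and 5 lower. With the replicate number as a block, 0 genes were called (2302 at an unadjusted p under 0.05), and both named genes that rose had an edgeR adjusted p of 0.11. The numbers share no stated source: the deviations of same-numbered 1 h and control libraries correlated at -0.181, 0.171 and 0.0691 across genes, and only 1 h replicate 2 correlated best with its own number. No named gene changed direction under any alternative run. The gene count at an unadjusted p under 0.05 (2727) and the number of intervals within 2-fold (25075) stayed within 1.5 times under each alternative run, at 1892 to 3171 and 23002 to 25557. With no change in any gene, a share near 0.05 of genes would have such a p. The range of the count therefore does not show that an excess over that share is stable. The single gene that was off at 1 h and on in the controls became 5 at an on level of 2 CPM, 0 at 10 CPM and 3 to 4 when 1 library was left out. The reverse count of 0 became 8 at 2 CPM and 0 to 8 with 1 library left out. The alternatives for DESeq2, lone libraries, abundance classes and shares of counts were chosen after seeing the data. The cause of these moves was not tested. Counting depth and spread limit the thinly counted genes most.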
